A study of Mus musculus with 4 samples.

Results

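Nanog, Tbx3, Prdm14 and Zfp42 are 4 of the 32285 genes of the count matrix, found by their symbols, and were followed cell by cell in 4 single-cell libraries of mouse embryonic stem cells. The study compared E14tg2a.4, a stem cell line grown without feeder cells, as wild type (WT) with Srrm2 hKO, a gene-trap line (CG0630) of the same background that has 1 of its Srrm2 copies truncated. Each genotype has 2 labelled samples, the Srrm2 hKO line is 1 clone, and WT cells were used at passages 19 to 21 and Srrm2 hKO cells at passages 4 to 7. All cultures were held on gelatine with the cytokine LIF and moved to serum-free ESGRO medium with LIF before harvest, for 24 h or 72 h by the labels and 48 h by the single-cell methods. Srrm2 encodes a large splicing-factor protein of nuclear speckles.

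The barcodes of the deposited matrix carry a library number from 1 to 4, and nothing in the files used here ties a number to a labelled sample. No comparison of WT with Srrm2 hKO was therefore made, and each library is described on its own, with no test between libraries. Srrm2 stood at 387, 533, 238 and 356 UMIs per 1000000 UMIs of the kept cells (CPM) in libraries 1 to 4, and these values were not used to name a library. After the cell filter, 31989 of 41142 barcodes were kept, between 7464 and 8514 a library, at a median of 18378 to 21898 UMIs per cell. The defining stem cell genes Pou5f1, Sox2 and Sall4 summed to between 1081 and 1368 CPM in every library. A fibroblast list summed to 0.545 to 10.4 and a primitive endoderm list to 1.45 to 4.80 CPM, both highest in library 3. A trophectoderm list summed to 49.7, 47.9, 36.6 and 27.3 CPM in libraries 1 to 4. A germ cell list summed to 41.6, 40.0, 37.1 and 28.5 CPM, so both of these were highest in library 1. Across libraries, 160 barcode sequences occurred more than once, 47 of them in libraries 2 and 4.

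All 4 genes belong to the naive state of pluripotency, in which stem cells resemble the epiblast before implantation. Nanog is a homeodomain factor that lets cells self-renew with little LIF signal, and its level is known to vary from cell to cell. Tbx3 is a T-box factor downstream of LIF that supports Nanog and Klf4. Prdm14 is a PR-domain zinc-finger protein that represses the DNA methyltransferase Dnmt3b and the FGF receptors. Zfp42, also called Rex1, is a zinc-finger protein whose extinction is the usual reporter of exit from the naive state. As cells leave that state they pass into a formative phase marked by Fgf5 and Pou3f1 (Oct6), and cells that differentiate as epithelium switch on the keratins Krt8 and Krt18.

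The genes lie on separate chromosomes of GRCm38. Nanog (ENSMUSG00000012396) is at chr6:122707489-122714633 on the plus strand, and Tbx3 (ENSMUSG00000018604) is at chr5:119670669-119684724 on the plus strand. Prdm14 (ENSMUSG00000042414) is at chr1:13113457-13127163 and Zfp42 (ENSMUSG00000051176) at chr8:43295063-43306980, both on the minus strand. All are protein-coding. The antisense gene Tbx3os1 overlaps the 5' end of Tbx3 over 697 bases and held only 2 to 117 UMIs a library, and the processed pseudogenes Nanog-ps1 and Nanog-ps2 are not rows of the matrix.

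The promoters of Nanog and Zfp42, from RefSeq on GRCm38.p6, are shown, since only these 2 of the 4 genes had a promoter sequence to hand. Both carry the octamer core that POU factors such as Pou5f1 recognise, at genes that were read here in the same cells as Pou3f1. Each runs from 250 bases before to 50 bases after an annotated start, 5' to 3' on the gene's strand. In the Nanog window (chr6:122707239-122707538, plus strand) the capitals mark the octamer core and a Sox core with 1 base between them. In the Zfp42 window (chr8:43306960-43307259, minus strand) they mark the octamer core alone.
Nanog: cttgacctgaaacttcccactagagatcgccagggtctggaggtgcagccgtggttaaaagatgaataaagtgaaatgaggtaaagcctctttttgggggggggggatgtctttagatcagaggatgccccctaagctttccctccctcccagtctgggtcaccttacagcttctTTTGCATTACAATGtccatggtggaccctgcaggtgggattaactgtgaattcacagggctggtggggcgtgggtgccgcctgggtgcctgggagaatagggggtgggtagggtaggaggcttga
Zfp42: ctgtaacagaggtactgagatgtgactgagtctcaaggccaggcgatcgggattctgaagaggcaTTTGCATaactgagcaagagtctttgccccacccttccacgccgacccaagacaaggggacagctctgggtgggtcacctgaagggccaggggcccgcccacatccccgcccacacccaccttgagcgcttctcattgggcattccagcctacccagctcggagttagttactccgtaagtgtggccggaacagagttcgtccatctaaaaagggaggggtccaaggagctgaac
The letters searched were ATGCAAA for the octamer core and CATTGT for the Sox core, on both strands. The octamer core begins at position -75 from the Nanog start used (-151 from its other annotated start) and -185 from the Zfp42 start, on the reverse strand in both. It occurs in 4.63% of 32851 promoters of this length, and the Sox core occurs in 12.6%. The pair with 1 base between them was found in 2 promoters (0.00609%), both of Nanog itself, whose annotated starts give overlapping windows, and the letters were chosen with the Nanog sequence known. A T-box core, GGTGTGA, is in 3.98% of promoters and in neither window. Such matches describe letters and not binding. Promoters of Tbx3 and Prdm14 were not used here.

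Nanog was highest in library 1 and lowest in library 4. It stood at 154 CPM (95% Poisson interval 152 to 156) in the first, at 130 (128 to 132) and 103 (102 to 105) in libraries 2 and 3, and at 61.9 (60.7 to 63.0) in the last. Neighbours in that order differed by 1.19-, 1.26- and 1.67-fold, and the highest library exceeded the lowest by 2.49-fold (2.44 to 2.55). Intervals here and elsewhere cover counting error only, so they say nothing of the spread between cultures, of which each library is 1. Those of levels and of ratios between levels also count each UMI as independent. They are too narrow where cells spread beyond counting error.

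Tbx3 differed most. Libraries 1 and 3 held 75.2 CPM (73.8 to 76.5) and 35.2 CPM (34.3 to 36.1), and libraries 2 and 4 held 10.9 (10.5 to 11.4) and 3.76 (3.48 to 4.06). The first pair was thus high and the second low, with 20-fold (18.5 to 21.7) between the extremes. Steps between neighbours were 2.14-, 3.22- and 2.91-fold. Tbx3os2, a separate noncoding gene just downstream on the other strand, stood at 0.947 and 0.360 CPM in libraries 1 and 3. In libraries 2 and 4 it held 0.0649 and 0.0402 CPM. A count of 3 UMIs makes 0.0150 and 0.0172 CPM there, so libraries 2 and 4 are not ordered for this gene.

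Prdm14 was sparse, with no more than 4 UMIs in any cell. Library 1 led with 8.73 CPM (8.28 to 9.19), libraries 3 and 2 followed with 4.90 (4.58 to 5.24) and 4.25 (3.97 to 4.54), and library 4 held 1.85 (1.65 to 2.06). The highest library exceeded the lowest by 4.72-fold (4.18 to 5.34). Libraries 3 and 2 were the closest neighbours, 1.15-fold apart (1.05 to 1.27).

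Zfp42 varied least. Libraries 2 and 1, at 535 CPM (532 to 539) and 516 (513 to 520), were 1.04-fold apart (1.03 to 1.05), and their order turned with another scaling, in which library 1 stood at 562 and library 2 at 521. Libraries 3 and 4 held 408 (405 to 411) and 359 (357 to 362) CPM, and the full range was 1.49-fold (1.47 to 1.5). That scaling, by median-of-ratios size factors, changed every value in library 1 by 0.12 on the log2 scale and every value in library 4 by -0.09.

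Of 11607 genes with at least 1000 UMIs, 19.8% differed by 2-fold or more between their highest and lowest library, and the median gene differed by 1.44-fold. Tbx3, Prdm14 and Nanog passed that mark and lay at the 99.8th, 97.0th and 88.0th percentile of this range, and Zfp42 lay at the 55.2nd. Among 10 other naive genes, 9 passed it. They ran from 2.03-fold for the nuclear receptor Nr5a2 to 5.04-fold for Tcl1, a coactivator of the kinase Akt, and the zinc-finger factor Klf5 was the exception at 1.72-fold. The 4 core genes, which stay on beyond the naive state, ranged by 1.28-fold (Pou5f1), 1.40-fold (Sox2), 1.48-fold (Sall4) and 1.16-fold (Utf1).

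The libraries differed in how many cells held UMIs of the formative and keratin genes, so the levels were read again in cells with 0 UMIs of Fgf5, Pou3f1, Krt8 and Krt18 among 5000 UMIs drawn from each cell. These were 7458, 6224, 5819 and 3551 cells in libraries 1 to 4. In them Zfp42 stood at 540, 621, 503 and 570 CPM, and library 4, lowest over all cells, was the second highest. Nanog stood at 160, 153, 125 and 93.4 CPM and Prdm14 at 9.12, 5.07, 6.18 and 3.04 CPM, so library 1 exceeded library 4 by 1.71-fold (1.67 to 1.76) and 3.0-fold (2.62 to 3.45). With 0 axis UMIs at full depth, a stricter choice that leaves fewer cells, Nanog was highest in library 2 (167 CPM, against 164 in library 1), and library 1 exceeded library 4 by 1.37-fold (1.33 to 1.42) for Nanog and 2.33-fold (1.95 to 2.8) for Prdm14. Zfp42 stood at 551, 654, 545 and 696 CPM under that choice, so that library 4 was the highest, with library 1 at 0.792 (0.781 to 0.804) of it. Tbx3 stood at 78.5, 13.0, 43.6 and 6.06 CPM, and library 1 still exceeded library 4 by 13.0-fold (11.8 to 14.2), and by 10.1-fold (8.99 to 11.5) under the stricter choice. The plot of levels by library sets both cell sets side by side.

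**Figure D1:**
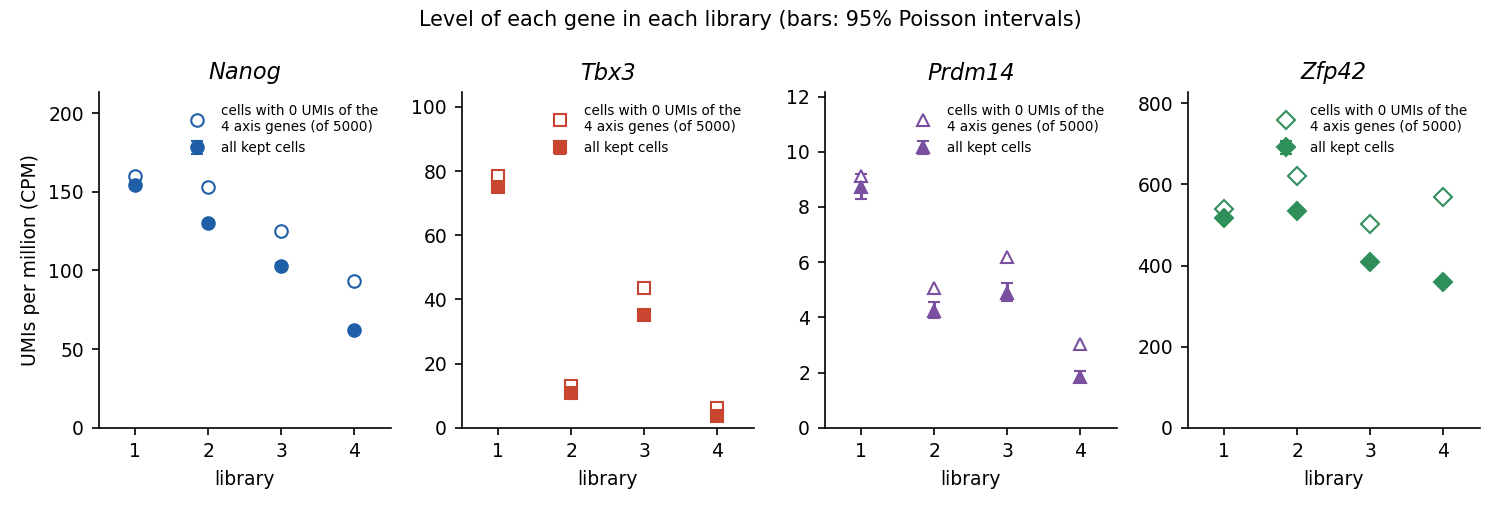
Level of each gene in CPM (y axis, linear, from 0) in libraries 1 to 4 (x axis), over all kept cells (filled, bars are 95% Poisson intervals) and over cells with 0 UMIs of Fgf5, Pou3f1, Krt8 and Krt18 among 5000 UMIs (open). Zfp42 in library 4 moves from 359 to 570 CPM, and Tbx3 keeps the order of libraries 1, 3, 2 and 4 in both cell sets.

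Read as detection, with every cell thinned to 5000 UMIs, a Nanog UMI was found in 52.6, 43.9, 38.9 and 23.6% of cells in libraries 1 to 4 and a Zfp42 UMI in 85.9, 80.9, 75.5 and 57.3%. Tbx3 was found in 29.1, 4.83, 15 and 1.63% and Prdm14 in 4.46, 1.91, 2.69 and 0.898%. No cells known to lack these genes were used as a floor, and RNA free in the droplets was not measured. Shares of Nanog and Zfp42 were low in cells with 8 or more Krt8 and Krt18 UMIs. Nanog was found in 2.78 to 6.44% and Zfp42 in 12.3 to 19.1% of these cells, at median depths of 22341 to 25752 UMIs before thinning. Tbx3 was found in 0, 0, 2.99 and 1.89% of those cells, which numbered 36, 18, 435 and 106 in libraries 1 to 4. On so few cells, the 1.89% in library 4 was not told apart from the 1.63% of all its cells. The 1.63% is therefore not read as a share of cells expressing the gene. Prdm14 was found in none of the keratin-high cells.

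The spread between cells beyond counting error, as the squared coefficient of variation left after the Poisson part (computed from all UMIs of a cell and scaled to 5000), was above that of the median gene for Nanog, Tbx3 and Zfp42 in each library. For Nanog it was 0.192, 0.410, 0.519 and 1.05 in libraries 1 to 4, and for Zfp42 0.199, 0.326, 0.367 and 1.00. The median gene stood at 0.141, 0.157, 0.211 and 0.188. Of the genes tested, 58.5, 72.5, 70.6 and 85.6% had less spread than Nanog, and 59.6, 68.0, 63.5 and 85.1% had less than Zfp42. Library 4 had the widest spread and library 1 the narrowest for both genes, the reverse of their order in Nanog level. Estimated at full depth, Nanog in library 1 stood at 0.0635, below the median gene at 0.128.

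Tbx3 had 0.596, 4.76, 1.68 and 12.2, and Prdm14 0.735, 1.06, 1.45 and 4.57. The Prdm14 values rest on few UMIs, its variance exceeded its mean by a factor of only 1.02 to 1.04, and among the counts drawn at 5000 UMIs cells with 2 Prdm14 UMIs numbered 8, 7, 7 and 0 in libraries 1 to 4 where a Poisson spread gives 8.06, 1.66, 3.01 and 0.298. Its spread is therefore not read against that of other genes. More than 97% of genes had less spread than Tbx3 in libraries 2 (97.6) and 4 (99.1), against 82.7 and 87.5% in libraries 1 and 3. Cells with at least 4 Tbx3 UMIs at full depth numbered 1054, 86, 394 and 20, and the fullest held 23, 13, 13 and 7 UMIs. In library 4, 13 cells had 2 Tbx3 UMIs among 5000 where a Poisson spread gives 1.23.

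Zfp42 counts were spread widest in library 4. There 3185 cells had no UMI among 5000 where a Poisson spread gives 1280, and 579 cells had 6 or more where it gives 70.5. Between these the number of cells declined steadily, from 1262 with 1 UMI to 390 with 5. In library 1, 85.9% of cells had a UMI against 92.8% under that spread.

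Leaving only cells with 0 UMIs of the 4 axis genes at full depth (6345, 4116, 4086 and 1692 cells) brought Zfp42 to 0.154, 0.139, 0.131 and 0.173, close to the median gene at 0.116 to 0.121. Nanog stood at 0.162, 0.191, 0.285 and 0.356 in these cells, also narrower than over all cells in each library. Tbx3 stood at 0.542, 3.57, 1.21 and 7.34, so its spread remained wider than that of Nanog and of Zfp42 in each library. This choice of cells also favours shallow ones. In the third of cells with fewest UMIs, Nanog stood at 182, 131, 130 and 63.6 CPM in libraries 1 to 4, against 139, 127, 85.5 and 59.7 in the third with most. Zfp42 stood at 549, 511, 479 and 320 CPM against 488, 539, 342 and 363. Both were thus higher in shallow cells in libraries 1 and 3, Zfp42 was lower there in libraries 2 and 4, and the part of depth in these values was not tested.

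**Figure D2:**
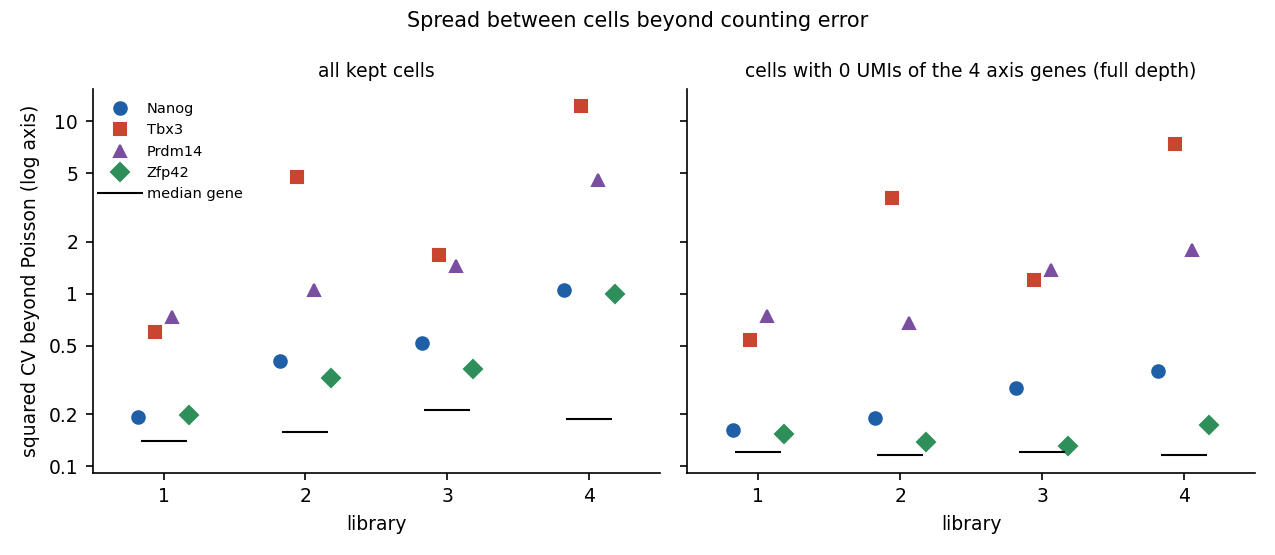
Squared coefficient of variation beyond Poisson (y axis, log scale, no unit) in libraries 1 to 4 (x axis) for the 4 genes and for the median gene (black bars), over all kept cells (left) and over cells with 0 UMIs of the 4 axis genes (right). Zfp42 in library 4 moves from 1.00 to 0.173 while Tbx3 moves from 12.2 to 7.34.

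Nanog, Tbx3 and Zfp42 were found together in pairs more often than the product of their shares in each library. Pairs with Prdm14 were so in part of the libraries. Over 6 pairs and 4 libraries, the ratio of observed to expected cells had an interval above 1 in 18 of 24 cases and below 1 in 0. Pairs of other genes were not scored, so no share over all pairs stands beside these counts. Whether they are particular to the 4 genes was not tested. For Nanog and Tbx3 the ratio was 1.09, 1.40, 1.32 and 1.66 in libraries 1 to 4, for Nanog and Zfp42 1.03, 1.12, 1.16 and 1.38, and for Tbx3 and Zfp42 1.06, 1.15, 1.21 and 1.46. Nanog and Prdm14 stood at 1.10, 1.44, 1.32 and 1.58, the first with an interval that included 1. Tbx3 and Prdm14 stood at 1.11, 2.16, 1.29 and 3.65, the last on 4 cells, and only the interval of library 2 lay above 1. Prdm14 and Zfp42 stood at 1.04, 1.10, 1.22 and 1.72, with intervals that included 1 in libraries 1 and 2. The ratio cannot exceed 1 over the larger of the shares, which for pairs with Zfp42 is 1.16 in library 1 and 1.74 in library 4, so ratios were not ranked between libraries or pairs. The odds ratio, which has no such ceiling and was added after the data were seen, had an exact interval above 1 in 21 of 24 cases and below 1 in 0. For Nanog and Zfp42 it was 1.64 (1.45 to 1.87), 3.46 (3.04 to 3.94), 3.37 (2.98 to 3.83) and 3.65 (3.21 to 4.15), lowest in library 1. For Nanog and Tbx3 it was 1.30, 2.10, 1.81 and 2.12, and for Nanog and Prdm14 1.24, 2.22, 1.69 and 1.94, with intervals that overlapped among libraries 2 to 4.

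In cells with 0 UMIs of the 4 axis genes at full depth, 4 of 24 intervals of the ratio were above 1 and 0 below. These were Nanog with Tbx3 in libraries 1, 2 and 3, at 1.06, 1.2 and 1.11, and Tbx3 with Prdm14 in library 2. The pairs with Zfp42 lay between 0.952 and 1.09 there, where the ceiling is 1.08 to 1.12. By the odds ratio, 11 of 24 intervals were above 1 and 0 below, on fewer cells and so with wider intervals. Nanog and Zfp42 stood at 1.21 (1.03 to 1.43), 1.35 (1.06 to 1.72), 1.54 (1.23 to 1.92) and 2.05 (1.38 to 3.09), so each library still showed them together, and each interval lay below that of all cells of the library.

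**Figure D3:**
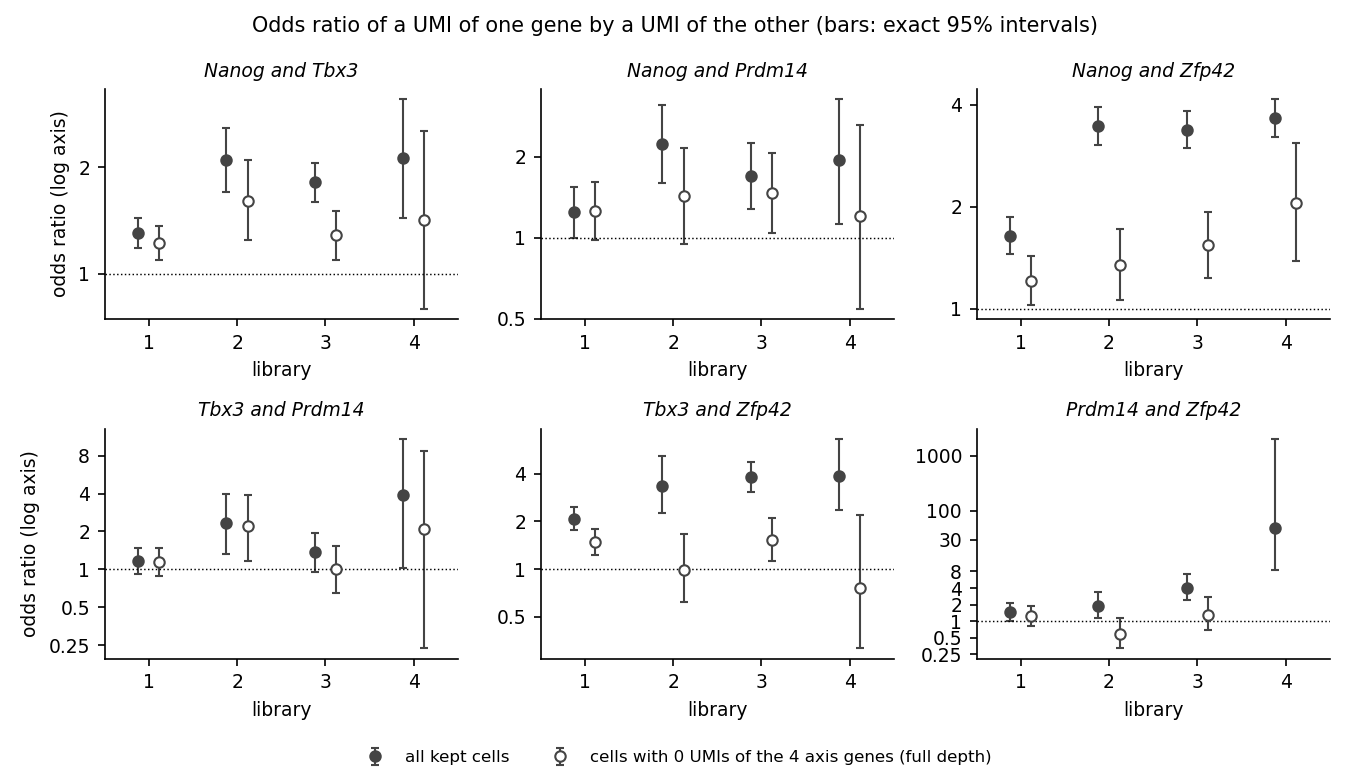
Odds ratio of finding a UMI of one gene by finding a UMI of the other (y axis, log scale, no unit) in libraries 1 to 4 (x axis), for 6 pairs, in all kept cells (filled) and in cells with 0 UMIs of the 4 axis genes at full depth (open), with exact 95% intervals. Nanog with Zfp42 stays above 1 in both cell sets in each library, at 3.65 and 2.05 in library 4, and Prdm14 with Zfp42 is not drawn for the second set in library 4, where every cell with Prdm14 also had Zfp42.

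The other 3 genes were higher in cells with a Zfp42 UMI than in cells without, in each library. In cells with a Zfp42 UMI, Nanog stood at 165, 150, 131 and 88.4 CPM in libraries 1 to 4, against 125, 60.6, 52.7 and 27.2 in cells without. The ratios were 1.32, 2.48, 2.48 and 3.25. For Tbx3 they were 1.89, 3.09, 3.56 and 3.69. For Prdm14 they were 1.47, 1.77, 3.65 and, in library 4, 49.2 (8.52 to 1971), where 66 of its UMIs lay in 4279 cells with Zfp42 and 1 in 3185 cells without. Split by a Nanog UMI, Prdm14 differed by 1.26, 2.17, 1.68 and 1.92, and split by a Tbx3 UMI by 1.14, 2.34, 1.33 and 3.82, so in library 2 Zfp42 gave the smallest of its ratios, with intervals that overlapped. Pou5f1, which marks both naive and formative cells, differed by 1.04, 0.943, 1.26 and 0.977. Sox2, its partner, differed by 1.37, 1.76, 2.36 and 2.19. Dnmt3b, a methyltransferase of the formative state, was lower in cells with Zfp42, at 0.392, 0.372, 0.489 and 0.494 of its level without.

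Cells in which none of the 4 genes was found made up 6.85, 14.7, 18.7 and 37.4% of libraries 1 to 4, against 4.51, 10.0, 12.4 and 31.8% from the product of the shares. All 4 were found in 64, 10, 23 and 3 cells. Cells with none had more UMIs of the axis genes. At least 2 Fgf5 and Pou3f1 UMIs were found in 12.4, 36.8, 20.6 and 40.8% of cells with none of the 4 genes, in 0.913, 9.77, 4.31 and 16.7% of cells with 1, and in 0.399, 1.89, 1.06 and 5.12% of cells with 2. At least 2 Krt8 and Krt18 UMIs were found in 13.1, 4.64, 36.2 and 14.7% of cells with none and in 0.646, 0.764, 6.18 and 4.75% of cells with 1. Libraries 2 and 4 thus led in Fgf5 and Pou3f1, and library 3 led in keratins. Pou5f1 stood at 821, 829, 530 and 778 CPM in the cells with none.

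**Figure D4:**
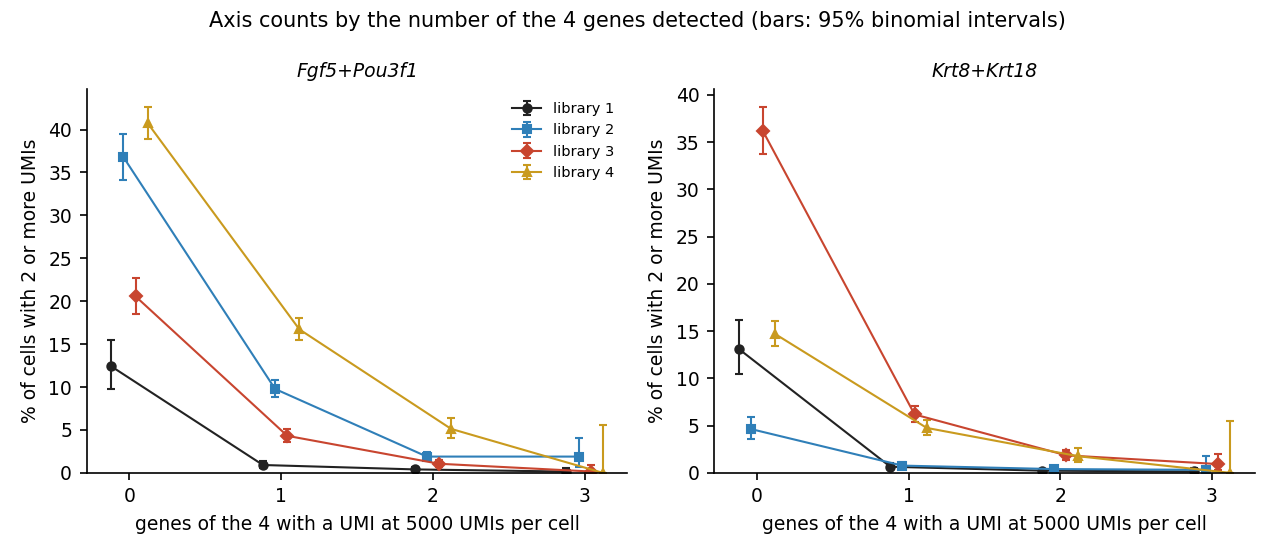
Percent of cells with at least 2 UMIs of Fgf5 and Pou3f1 (left y axis) or of Krt8 and Krt18 (right y axis), by the number of the 4 genes with a UMI (x axis, 0 to 3), with every cell thinned to 5000 UMIs. Lines are libraries and bars 95% binomial intervals, and each line drops most between 0 and 1, from 40.8 to 16.7% for Fgf5 and Pou3f1 in library 4.

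Along rising Fgf5 and Pou3f1 counts all 4 genes were lower, and in libraries 3 and 4 Nanog kept more of its level than Zfp42 at the far end. Cells with 4 or more axis UMIs numbered 197, 88 and 390 in libraries 2, 3 and 4. Library 1 had only 20 such cells and is not given in this class. Nanog kept 21.2% (17.9 to 25), 24.0% (18.8 to 30.2) and 23.6% (20.2 to 27.3) of its level in cells with 0 axis UMIs. Zfp42 kept 16.3% (14.8 to 17.8), 9.23% (7.59 to 11.1) and 13.7% (12.7 to 14.8). Nanog and Zfp42 intervals were apart in libraries 3 and 4. In library 2 they all but touched, and they overlapped without cells of high UMIs (17.2 to 24.3 against 14.3 to 17.4) and in cells with 0 keratin UMIs (17.5 to 25.6 against 16.3 to 19.9). The axis of Pou3f1 alone was cut lower, at 2 or more UMIs, and in library 2 Zfp42 kept 28.4% and Nanog 27.5% there. The like class of 2 or more Fgf5 and Pou3f1 UMIs together gave 27.4% and 27.6%. That class held 109, 886, 466 and 1743 cells in libraries 1 to 4, and the class of Pou3f1 alone 103, 787, 453 and 1561. The axis thus reads mostly Pou3f1, and its values are not shown for Fgf5 by itself.

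Tbx3 kept 6.79, 7.61 and 11.3% in libraries 2, 3 and 4, on 4, 8 and 6 UMIs, and its interval lay below that of Nanog in libraries 2 and 3 and overlapped it in library 4. Prdm14 kept 8.81% on 2 UMIs, 0% on 0 UMIs, which allows up to 25.2%, and 8.08% on 2 UMIs, with intervals that overlapped those of Nanog in 3 of 3 libraries. Tbx3 and Prdm14 could not be told apart in any class of this axis at this depth. All 12 values were at most 50%. Over all genes, 1.9% of 5909 tested were at least 2-fold lower in each of these libraries (112 genes, and 206 without library 3). Nanog and Zfp42 were among them, and Tbx3 and Prdm14 had too few UMIs to be tested. With Fgf5 alone as the axis, cut at 2 or more UMIs, only library 4 had enough cells. Nanog kept 57.0% (41.0 to 77.0) there.

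The class of 2 or more axis UMIs, chosen after the class sizes were seen, let library 1 enter with 109 cells. There Nanog kept 33.1, 27.6, 26.3 and 29.4% in libraries 1 to 4, Tbx3 13.2, 18.1, 13.5 and 16.2%, Prdm14 22.1, 17.8, 6.83 and 15.6%, and Zfp42 16.5, 27.4, 17.2 and 21.4%. Nanog intervals lay above those of Tbx3 in 4 of 4 libraries and above those of Zfp42 in 3 of 4. These intervals, like those of the other axis classes, leave out the spread between cells within a class. The order of the genes is thus given against counting error alone. Over all genes, 1.84% of 6368 tested were at least 2-fold lower in all 4 libraries, Nanog, Tbx3 and Zfp42 among them, and Prdm14 was again not tested. Tbx3 held 31, 50, 71 and 40 UMIs in that class in libraries 1 to 4. The median over the libraries was 14.9% for Tbx3, 19.3% for Zfp42 and 28.5% for Nanog, against 106% for the median gene.

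A single axis UMI already went with lower levels. In those cells Nanog kept 60.6, 52.0, 47.7 and 47.6% in libraries 1 to 4, Tbx3 50.9, 47.5, 33.5 and 23.9%, Prdm14 53.4, 53.0, 37.2 and 40.5%, and Zfp42 54.7, 62.0, 43.6 and 43.5%. Tbx3 intervals lay below those of Zfp42 in 3 of 4 libraries. In library 2 Nanog kept less than Zfp42 at 1 UMI, at 52.0% (49.6 to 54.4) against 62.0% (60.7 to 63.3). The comparison of every pair of genes was also added after the data were seen.

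Other naive genes went the same way along this axis. In the class of 2 or more UMIs, 9 of 10 were at most 50% in each library, with list medians of 20.8, 25.6, 16 and 22.5%, and Klf5 was the exception in each. Of 4 core genes only Sox2 was at most 50%, in 3 libraries, and in library 2 it kept 50.2%. Of 8 formative genes, among them Otx2, Lef1 and Dnmt3b, 0 were at most 50%, and 5, 8, 4 and 4 were at least 2-fold higher in libraries 1 to 4. These are counts within a library, and over all genes 1.04% of 6368 tested were at least 2-fold higher in all 4 libraries. Of 5 genes that Prdm14 is known to repress, 4, 2, 1 and 1 were at least 2-fold higher and 1, 1, 1 and 1 at most 50%. Their medians over the libraries were 284% for Dnmt3b, 185% for Dnmt3a, 167% for Fgfr1, 96.1% for Fgfr2, which had too few UMIs to be among the genes tested, and 34.1% for Dnmt3l. Of 5 genes of FGF and ERK feedback, 1, 2, 1 and 0 were at least 2-fold higher in libraries 1 to 4. The ERK phosphatase gene Dusp6 stood at a median of 261%, and Spry2, Spry4, Etv4 and Etv5 at 113, 116, 145 and 91.2%. Of 6 contractile and keratin genes, 4, 5, 5 and 1 were at least 2-fold higher along this axis too, with list medians of 3031, 297, 300 and 148%, and 37 of the 109 cells of library 1 also held 2 or more keratin UMIs. Values in cells with 0 keratin UMIs are given with the crossed classes.

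**Figure D5:**
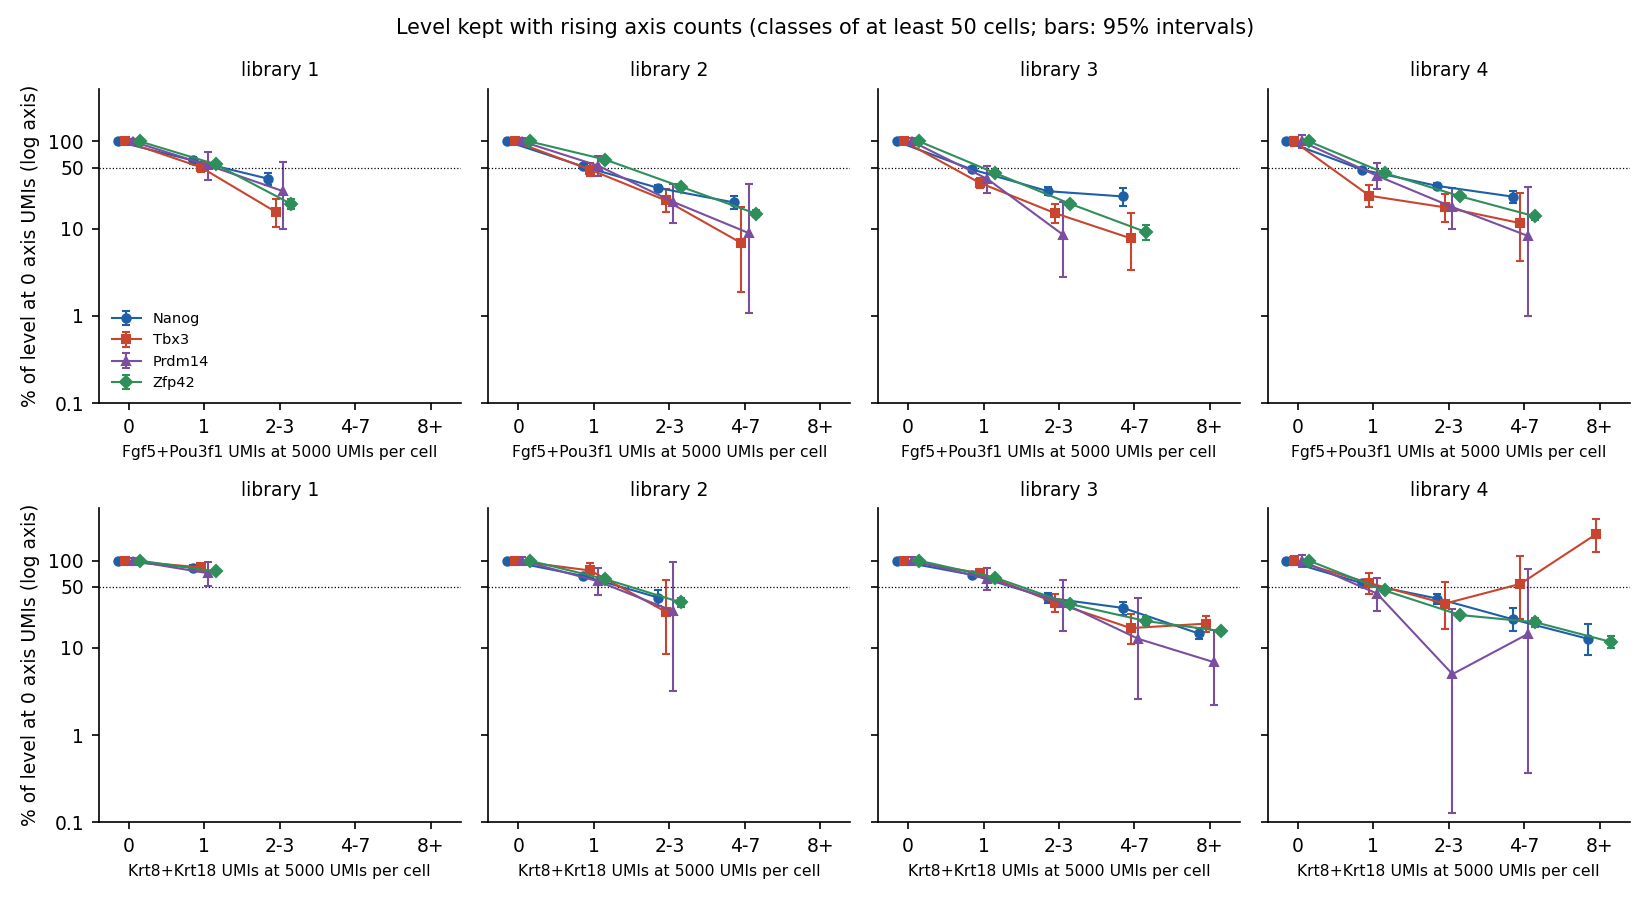
Level kept as percent of that in cells with 0 axis UMIs (y axis, log scale) by the number of axis UMIs among 5000 (x axis), for Fgf5 and Pou3f1 (upper row) and Krt8 and Krt18 (lower row) in libraries 1 to 4, with 95% intervals. Classes under 50 cells and values of 0 are not drawn, the dotted line is at 50%, and Tbx3 in library 4 stands at 201% in the last keratin class where the other genes are at most 12.7%.

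Along rising Krt8 and Krt18 counts Nanog, Zfp42 and Prdm14 were lower in each library in classes of at least 50 cells. So was Tbx3, except in library 4 in the class of 8 or more UMIs and in the class of 4 or more that contains it. In library 3, Nanog kept 68.9, 37.6, 28.8 and 14.7% in cells with 1, 2 to 3, 4 to 7 and 8 or more keratin UMIs, and Zfp42 kept 64.1, 31.8, 20.4 and 15.6%. In library 4 Nanog kept 55.3, 36.9, 21.3 and 12.7% and Zfp42 45.6, 23.9, 19.7 and 11.7%. Prdm14 kept 6.88% in library 3 at 8 or more, and 0% in library 4 on 0 UMIs, which allows up to 57.9%.

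With 2 or more keratin UMIs Tbx3 kept 12.6% (8.43 to 18.1), 38.0% (18.2 to 70.0) and 22% (19 to 25.4) in libraries 1 to 3. In library 4 it kept 55.4, 32.2, 54.3 and 201% (127 to 302) in cells with 1, 2 to 3, 4 to 7 and 8 or more, the last on 24 UMIs in 10 of 106 cells, 7 of them in 1 cell. In library 3 it kept 72.2, 33.1, 16.9 and 19% (15.4 to 23.2), the last on 97 UMIs in 61 of 435 cells. Libraries 1 and 2 had only 36 and 18 cells in this class, with 1 and 5 Tbx3 UMIs, the 5 in 1 cell.

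With 4 or more keratin UMIs, 11 of 12 values in libraries 1, 3 and 4 (56, 577 and 222 cells) were at most 50%, and Tbx3 in library 4 was the exception at 125% (83.9 to 179). That value moved to 79.4% (54.6 to 112) with axis counts taken at 10000 UMIs. It was 102% (61.6 to 159) without cells of high UMIs and 148% (92.2 to 227) in cells with 0 Fgf5 and Pou3f1 UMIs. Single-gene axes were cut lower, at 2 or more UMIs. There Tbx3 in library 4 kept 96.7% (65.5 to 138) with Krt8 alone and 108% (73.2 to 154) with Krt18 alone. No direction is read from these values. Over all genes, 3.3% of 4885 tested were at least 2-fold lower in these libraries (161 genes, 324 without library 1 and 247 without library 4). With 2 or more, 15 of 16 values were at most 50%, and Tbx3 in library 4 stood at 69.3% (49.6 to 94.6). Over all genes, 1.96% of 5568 tested were at least 2-fold lower in all 4 libraries in that class. Nanog and Zfp42 passed in both classes, and Tbx3 and Prdm14 had too few UMIs to be among the genes tested. Of the other naive genes 9 of 10 were at most 50% in each library, with medians of 14.9, 25.7, 21.2 and 21.4%. Of 4 core genes only Sox2 was at most 50% with 2 or more keratin UMIs, in each library, while with 8 or more it was 4 of 4 in library 3 (median 43.4%) and 2 of 4 in library 4 (median 48.9%). The contractile and keratin list was at least 2-fold higher for 6 of 6 genes in each library, where 3.77% of 5568 genes tested were higher in all 4, and its members Acta1 and Krt7 had too few UMIs to be among those tested.

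The 2 axes were then taken apart. In cells with 2 or more Fgf5 and Pou3f1 UMIs and 0 keratin UMIs (59, 712, 209 and 1125 cells), Nanog kept 40.7, 28.1, 34.3 and 29.7% of its level in cells with 0 of both, and Zfp42 kept 22.4, 30.1, 22 and 22.9%. In cells with 2 or more keratin UMIs and 0 of Fgf5 and Pou3f1 (41, 44, 457 and 203 cells), Nanog kept 23.4, 42.3, 24.6 and 20.7% and Zfp42 21.5, 40.1, 24.1 and 18.0%. Tbx3 kept 15.4, 16, 12.5 and 16.3% in the first class and 22.1, 22.9, 27.4 and 110% (74.7 to 156) in the second. The intervals of Tbx3 in the classes were apart in libraries 3 and 4 and overlapped in libraries 1 and 2, where the keratin class is under 50 cells. The keratin value of library 4 rests on 33 Tbx3 UMIs in 203 cells. As with the values above, no direction is read from it. Nanog and Zfp42 intervals overlapped in the keratin class in each library. Each class holds its own cells of 1 culture, and whether they follow each other in time was not tested.

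Genes that differed with detection of a member were sought over all genes tested, at 1.5-fold or more in each of the 4 libraries. With a Nanog UMI, 0.0119% of 8390 genes were higher, which is 1 gene, and 0.238% were lower, which is 20 genes led by Tagln (-2.68) and Krt8 (-2.43). With a Tbx3 UMI, 0.0119% of 8391 genes were higher, which is 1 gene, and 0.286% were lower, which is 24 genes. Calcoco2, which encodes an autophagy receptor, was the gene that was higher with Nanog and with Tbx3. It stood at 6.37, 18.1, 12.1 and 12.1 CPM in cells with Nanog against 4.21, 9.3, 5.47 and 4.25 without, and at 8.12, 34.1, 19.6 and 31.2 CPM in cells with Tbx3 against 4.21, 12.1, 6.02 and 5.69 without. The genes lower with Tbx3 were led by Tagln, an actin-binding protein of smooth muscle, and Pou3f1, with medians of -3.06 and -2.35 on the log2 scale, followed by Zyx, Pim2 and Nes. In cells with Tbx3, Tagln held 25, 1, 264 and 39 UMIs and Zyx 31, 4, 59 and 4 in libraries 1 to 4. With a Prdm14 UMI, 0% were higher and 0.262% lower (22 genes), led by Krt18 (-3.42) and Krt8 (-2.24), then Zyx, Fzd2 and Pou3f1. In cells with Prdm14, Krt18 held only 12, 2, 10 and 0 UMIs and Krt8 6, 6, 5 and 5 in libraries 1 to 4. Zyx and Fzd2 held no more than 6 in any library, so the order of these genes is not read.

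With a Zfp42 UMI, 0.334% of 8390 genes were higher (28 genes) and 1.99% lower (167 genes). At 10000 UMIs per cell both counts were far larger, and more genes were lower with Tbx3. Those counts are given with the processing. The higher genes were led by Itpka at 1.62, the naive factor Klf4 at 1.59, Manba, Notum, an inhibitor of Wnt ligands, and Tcl1. The lower ones were led by Tagln at -3.57, Krt8 at -3.38, Krt18 at -3.0, Nes and Arl4c. The median log2 ratio of the 10 naive genes was 0.44 with Tbx3, 0.34 with Prdm14 and 1.47 with Zfp42, while over all genes it was -0.03, -0.04 and -0.05. It was 0.45 with Nanog, against -0.02 over all genes. By library the value with Zfp42 was 0.50, 1.36, 1.51 and 2.41. The splits are not alike, since cells without a Zfp42 UMI were 14.1, 19.1, 24.5 and 42.7% of libraries 1 to 4. Cells without a Prdm14 UMI were 95.5, 98.1, 97.3 and 99.1%, undetected expressing cells among them. Ratios and gene counts are therefore not ranked between the 4 genes. The split by Nanog was added after the data were seen, and at 10000 UMIs per cell it gave 0 higher genes. Without library 1 the counts were 6 higher and 73 lower for Nanog, 14 higher and 94 lower for Tbx3, 4 and 104 for Prdm14, and 261 and 342 for Zfp42. For Prdm14, 2 genes were higher and 47 lower without library 2, 3 and 40 without library 3, and 2 were higher without library 4. Within cells that had 0 axis UMIs, the counts were 0 and 0 for Nanog, Tbx3 and Zfp42, over 4 libraries, and 3 genes were lower with Prdm14 over libraries 1, 2 and 3 alone, since library 4 had too few cells with Prdm14.

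Over 30 sums of cells by library and axis class, which share libraries and cells, the pattern most like Nanog was that of Tigar, a regulator of glycolysis (Pearson r of log2(CPM + 1) 0.98), Mybl2 (0.98) and Ooep (0.97). Tbx3 was most like Fabp3 (0.97), Inhbb, a subunit of inhibin and activin (0.96), and Cox5a (0.96). Prdm14 was most like Itpka, Sod2 and Sept1 (each 0.98), and Zfp42 was most like Fbxo15 (0.99), Hsd17b14 (0.99) and Zfp296 (0.98). Among the 4 genes the values ran from 0.59 for Tbx3 with Zfp42 to 0.95 for Nanog with Prdm14. Tbx3 with Nanog stood at 0.71.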

How the data were processed

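Whole-cell 3' libraries (10x Genomics Chromium v3) of 4 labelled samples were sequenced on an Illumina instrument. The authors made the deposited count matrix with Cell Ranger 6.1.2 on mm10 and joined the libraries with its aggregation step, which equalises read depth, so UMI counts are not the full sequencing depth. Every value here comes from these UMI counts, with no length scaling. No sample column of the matrix was left unmapped to a library number (0). Cells were kept by the filter the study states: barcodes more than 1 SD under their library's average in UMIs or genes were dropped, as were those over 10% mitochondrial UMIs. The paper reports somewhat fewer cells, and a lower median of genes per cell, after its own quality control. No doublets were removed, no cells were clustered and free RNA was not subtracted. A count of 3 UMIs corresponds to 0.0150 to 0.0180 CPM.

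Axis classes and detection used counts thinned at random to 5000 UMIs per cell, and levels within classes used all UMIs. Intervals at 95% are exact Poisson for levels, Clopper-Pearson for shares and conditional for ratios. Genes were tested along an axis with at least 200 UMIs over both classes and at least 50 in the smaller. The 50 were expected or observed UMIs, whichever was larger, so a gene could be tested with fewer observed. Splits by detection of a gene had no such mark for the smaller class. Classes of at least 50 cells were used unless stated. Cells are not replicates, so no p-value was computed. The planned edgeR comparison of genotypes was not run, since library numbers could not be mapped to samples. Named genes are the 4 genes, lists of naive, core, formative, Prdm14-repressed, FGF feedback and contractile genes, the 5 strongest per direction by detection of a gene (Nanog added later), and the 3 most alike per gene. The genes, lists and tests were chosen with earlier results of these data known. Scripts ran in Python 3.11.15 with numpy 2.4.6 and scipy 1.17.1 and were tested on simulated counts. Alternatives covered scaling, thinning depth, cell filters, axis genes and leaving out libraries.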

Additional observations from a re-analysis of the deposited data

How the results depend on the processing

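No paired analysis was possible because the library numbers of the matrix could not be tied to labelled samples, so neither the genotype comparison nor its alternatives (with a block, another tool, no filter, or a replicate left out) were run. Each library is 1 culture, intervals cover counting error only, and Prdm14 is limited by its depth. Of the alternatives computed, 78 values stayed within the main interval or within 1.5 times the main count and 46 moved. These are counts and ranges, which have no sign to turn, and size factors changed the highest library for Zfp42.

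With size factors the range between libraries was 2.89-fold for Nanog, 23.2-fold for Tbx3, 5.47-fold for Prdm14 and 1.67-fold for Zfp42 (library 1 over 4 in place of 2 over 4). With the mean of per-cell CPM it was 2.58-fold for Nanog, and without cells above 2 times the median UMIs it was 1.47-fold for Zfp42. In cells with 0 axis UMIs, 4 of 24 co-detection intervals were above 1, and 2 of 24 with these cells at 10000 UMIs, an alternative added after the data were seen. Odds ratios gave 21 of 24 in all cells and 11 of 24 in these. That choice of cells also removes most of the cells in library 4.

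With 2 or more UMIs of Fgf5 alone as the axis, 3 of 4 values were at most 50%, since only library 4 had enough cells. Of these, Tbx3 and Prdm14 rest on 0 UMIs, which allow up to 80.3 and 164%, Zfp42 kept 12.9% and Nanog kept 57.0%, and 71 genes were at least 2-fold lower. In cells with 0 keratin UMIs, 187 genes were lower along Fgf5 and Pou3f1, and leaving out a library gave 112 to 206. Along the keratins, 7 of 8 values were at most 50% both in cells with 0 Fgf5 and Pou3f1 UMIs, with 259 genes lower, and without cells of high UMIs, with 308 genes lower. These settings left fewer libraries with enough cells. Leaving out a library gave 7 to 11 values and 161 to 324 genes.

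Counts of genes by detection moved most. At 10000 UMIs, 0 genes were higher and 77 lower with Nanog, 54 genes were lower with Tbx3, 1 was higher with Prdm14, and 401 were higher and 484 lower with Zfp42. In cells with 0 axis UMIs the counts were 0 higher and 0 lower with Nanog and with Tbx3, 3 lower with Prdm14 (libraries 1, 2 and 3 only), and 0 higher and 0 lower with Zfp42. Leaving out a library gave 1 to 6 higher and 20 to 73 lower with Nanog, 1 to 14 higher and 25 to 94 lower with Tbx3, 2 to 4 and 31 to 104 with Prdm14, and 32 to 261 and 174 to 342 with Zfp42, the highest of each without library 1. The cause of these shifts was not tested. The spread of Nanog in library 1 was below that of the median gene at full depth.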

Other observations

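In cells with at least 2 UMIs of primitive endoderm genes such as Gata4, Gata6 and Sox17 (211 cells, 133 of them in library 3), Zfp42 was lower than over all cells of the same library in each library, and so was Nanog. Libraries 1 and 2 had only 12 and 11 such cells, with Zfp42 at 291 CPM (226 to 368) and 242 CPM (192 to 302) and Nanog at 96.9 CPM (61.4 to 145) and 90.9 CPM (61.3 to 129.7, just under the library's 130). In library 3 Nanog stood at 16.6 CPM (12.7 to 21.3), Zfp42 at 66.9 CPM (58.7 to 75.9), Tbx3 at 10.5 CPM (7.43 to 14.4) and Prdm14 at 0.829 CPM on 3 UMIs, and Pou5f1 at 220.0 CPM. In library 4, with 55 such cells, Nanog stood at 24.2 CPM, Zfp42 at 109 CPM, Pou5f1 at 613 CPM and Prdm14 at 0.693 CPM on 1 UMI (0.0175 to 3.86, which includes the library's 1.85), while Tbx3 was at 6.23 CPM (2.85 to 11.8) on 9 UMIs, against 3.76 CPM over the whole library.

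Cells with at least 2 UMIs of two-cell-like genes such as Zscan4c numbered only 9, 7, 18 and 4 in libraries 1 to 4. Zfp42 stood in them at 347 CPM (254 to 463), 138 (73.6 to 236), 263 (214 to 320) and 458 (342 to 601), below the whole library in libraries 1 to 3 and with an interval that included it in library 4. In library 3, with the most such cells, Nanog stood at 91.2 CPM (63.5 to 127) and Tbx3 at 41.7 CPM (23.8 to 67.7), with intervals that included the library's 103 and 35.2 CPM. Cells highest in G2/M genes (1672 to 1933 a library) mostly differed little from the rest. Nanog stood at 160 against 152 CPM in library 1 and at 111 against 100.1 CPM in library 3. In library 4 Zfp42 stood at 386 against 350 CPM. Tbx3 stood there at 3.15 CPM (2.65 to 3.71) against 3.97 CPM (3.63 to 4.33), with intervals that overlapped, so no direction is read.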
